A study of Mus musculus with 10 samples.

Results

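The 10 genes described here encode the 5 subunits of the transcription factor NF-kB (Nfkb1, Nfkb2, Rela, Relb and Rel), 3 inhibitors that hold it in the cytoplasm (Nfkbia, Nfkbib and Nfkbie), the ubiquitin-editing feedback inhibitor A20 (Tnfaip3) and the kinase that releases NF-kB (Ikbkb). They were taken by symbol as a family of known roles, with earlier results of these data known, and all 10 were found among 22186 genes, 9 of them with enough signal to be tested (average over the 10 libraries of 1 FPKM or more). FPKM counts sequenced fragments relative to the length of the transcript and the size of the library. Poly(A) RNA was sequenced from RAW264.7 cells, a macrophage-like line from a virus-induced mouse tumour that the labels give as wild type. One group of 5 libraries came from cells in medium for 24 h, the other group of 5 from cells in medium with doxorubicin, also for 24 h. Doxorubicin is an anthracycline drug that poisons topoisomerase II and breaks DNA. The sample titles give a dose of 10 nM, the series design gives 100 nM as the dose that should stand, and the dilution in the treatment protocol works out at 1000 nM, so the dose is uncertain. Dimethyl sulfoxide is named as the solvent of doxorubicin and is not named for the medium cultures. All groups are 1 cell line, and nothing in the labels says if replicates were grown as separate cultures. The p-values thus reflect the spread between these samples alone, which may be technical.

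NF-kB acts as pairs of subunits. In resting cells the IkB proteins mask the nuclear localisation signals of these pairs, and stimuli such as bacterial products or tumour necrosis factor activate the IkB kinase complex, which marks IkB for ubiquitination and destruction. The freed dimers switch on inflammatory genes in macrophages together with the genes of IkBα, A20 and several of the subunits themselves, which closes a feedback loop. DNA breaks can also activate the kinase complex, through the kinase ATM and the scaffold NEMO. The series title names the secretory phenotype of senescent cells as its question, and NF-kB is a known driver of the cytokine part of that phenotype.

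Because the feedback loop runs through the promoters of these genes, the 250 bases before the transcription start are shown for 4 of them, from RefSeq on build GRCm38.p6, read 5′ to 3′ on the gene's own strand. Capitals mark every match on either strand to the NF-kB consensus, a motif of 10 bases made of 3 G, a purine, any base, A or T, 2 pyrimidines and 2 C. Matches that overlap run together.
Nfkbia, chr12:55492648-55492897, minus strand: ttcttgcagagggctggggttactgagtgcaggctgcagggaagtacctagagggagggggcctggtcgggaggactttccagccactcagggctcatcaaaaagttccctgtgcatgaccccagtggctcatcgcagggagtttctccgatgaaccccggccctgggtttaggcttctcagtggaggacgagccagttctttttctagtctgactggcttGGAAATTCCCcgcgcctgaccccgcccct
Tnfaip3, chr10:19015411-19015660, minus strand: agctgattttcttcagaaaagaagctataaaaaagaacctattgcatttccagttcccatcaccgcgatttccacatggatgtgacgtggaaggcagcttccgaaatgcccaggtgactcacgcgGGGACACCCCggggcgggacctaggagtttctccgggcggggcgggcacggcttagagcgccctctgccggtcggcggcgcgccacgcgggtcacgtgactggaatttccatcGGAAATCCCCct
Rel, chr11:23770970-23771219, minus strand: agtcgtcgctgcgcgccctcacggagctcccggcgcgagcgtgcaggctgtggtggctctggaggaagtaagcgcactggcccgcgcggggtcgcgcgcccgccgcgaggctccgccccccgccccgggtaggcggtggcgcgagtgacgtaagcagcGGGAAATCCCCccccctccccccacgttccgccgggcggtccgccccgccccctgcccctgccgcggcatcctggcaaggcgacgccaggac
Nfkb2, chr19:46304487-46304736, plus strand: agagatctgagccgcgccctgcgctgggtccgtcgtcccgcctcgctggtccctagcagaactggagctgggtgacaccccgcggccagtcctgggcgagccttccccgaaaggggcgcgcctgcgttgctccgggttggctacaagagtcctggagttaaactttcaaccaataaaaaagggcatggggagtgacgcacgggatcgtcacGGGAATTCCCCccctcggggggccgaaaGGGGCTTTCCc
Promoter windows were matched for 7 of the 10 genes, and 5 of these 7 (the 4 above and Nfkbie) held a match in at least 1 window. Counted by window, 7 of their 10 windows held a match. Over all 32851 mouse promoter windows of this length, 1281 (3.90%) held one. In Nfkbia the match lies 20 to 29 bases before the start, and in Rel the capitals span 82 to 92 bases before it. Rela, Nfkbib and a second window of Tnfaip3 held no match. A match describes letters in a window and says nothing of binding in these cells.

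The FPKM of a library summed to 338293 at the lowest and 356111 at the highest, with 8207 to 9125 genes listed at 0. The files held no read totals, so depth and counting error are unknown. Correlations of log2(FPKM + 1) over tested genes had a median of 0.961 where 1 of the pair was from number 1, against 0.991 among the other 8. Of 8 macrophage markers, 7 were tested, among them Cd68 at 463 ± 82.3 and Lyz2 at 471 ± 32.7 FPKM in medium, while Mertk was at 0.317. Summed levels of the 8 ran from 1205 to 1438 FPKM in medium and from 1255 to 1516 with doxorubicin, and with the block Itgam (0.27) and Lyz2 (0.27) were higher. Neutrophil markers summed to at most 1.74 FPKM, with S100a9 and Ly6g at 0 in all libraries. Lymphocyte markers summed to at most 0.357, with Cd3e, Cd3g and Cd8a among those at 0, and fibroblast and epithelial markers to at most 0.193, with Col1a2, Krt8 and Krt18 at 0. In bulk RNA, fewer cells that express a gene and less of its RNA per cell cannot be told apart.

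In medium, the 2 genes with the highest length-scaled levels were Nfkb1, a precursor subunit gene, and Nfkbia, which encodes IkBα. Their means were 71.4 ± 17.1 and 68.1 ± 8.70 FPKM (SD, n = 5), and they were not separated beyond their spread, since Nfkb1 was the higher in 4 of 5 libraries. Nfkbib followed at 36.8 ± 4.10 FPKM, below Nfkbia in 5 of 5 libraries. Nfkb2 (20.9 ± 4.51), Rela (20.2 ± 2.91) and Ikbkb (17.6 ± 2.25) lay close together, with no neighbours in this order that kept it in all 5 libraries. Tnfaip3 stood at 14.9 ± 6.35, Relb at 11.05 ± 4.12 and Rel at 6.93 ± 1.31 FPKM. Nfkbie, the gene of IkBε, was near the limit of the test at 1.04 ± 0.357 FPKM.

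Among the 5 subunits, Nfkb1 held the largest share of their summed FPKM in each library, 48.5% to 57.9% in medium and 46.6% to 56.8% with doxorubicin. Rela, the subunit with the classical activation domain, held 14.3% to 19.3% in medium and 15.9% to 22.5% with doxorubicin, and its share was larger in the treated library of all 5 replicate numbers. The ratio of Nfkbia to Rela, which does not depend on how a library is scaled, was 3.37 ± 0.141 in medium and 3.07 ± 0.208 with doxorubicin, lower in 5 of 5 numbers. Nfkb1 over Rela was 3.50 ± 0.571 and 3.13 ± 0.601, also lower in 5 of 5. Relb over Rela was lower in 4 of 5 numbers, Tnfaip3 over Nfkbia in 3 and Nfkbib over Nfkbia in 2. The shares of Nfkb1 and Relb were lower in 4 of 5 numbers, and those of Nfkb2 and Rel in 3. These shares and ratios are descriptions without a test, and how often other gene pairs shift in 5 of 5 numbers was not computed.

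**Figure D1:**
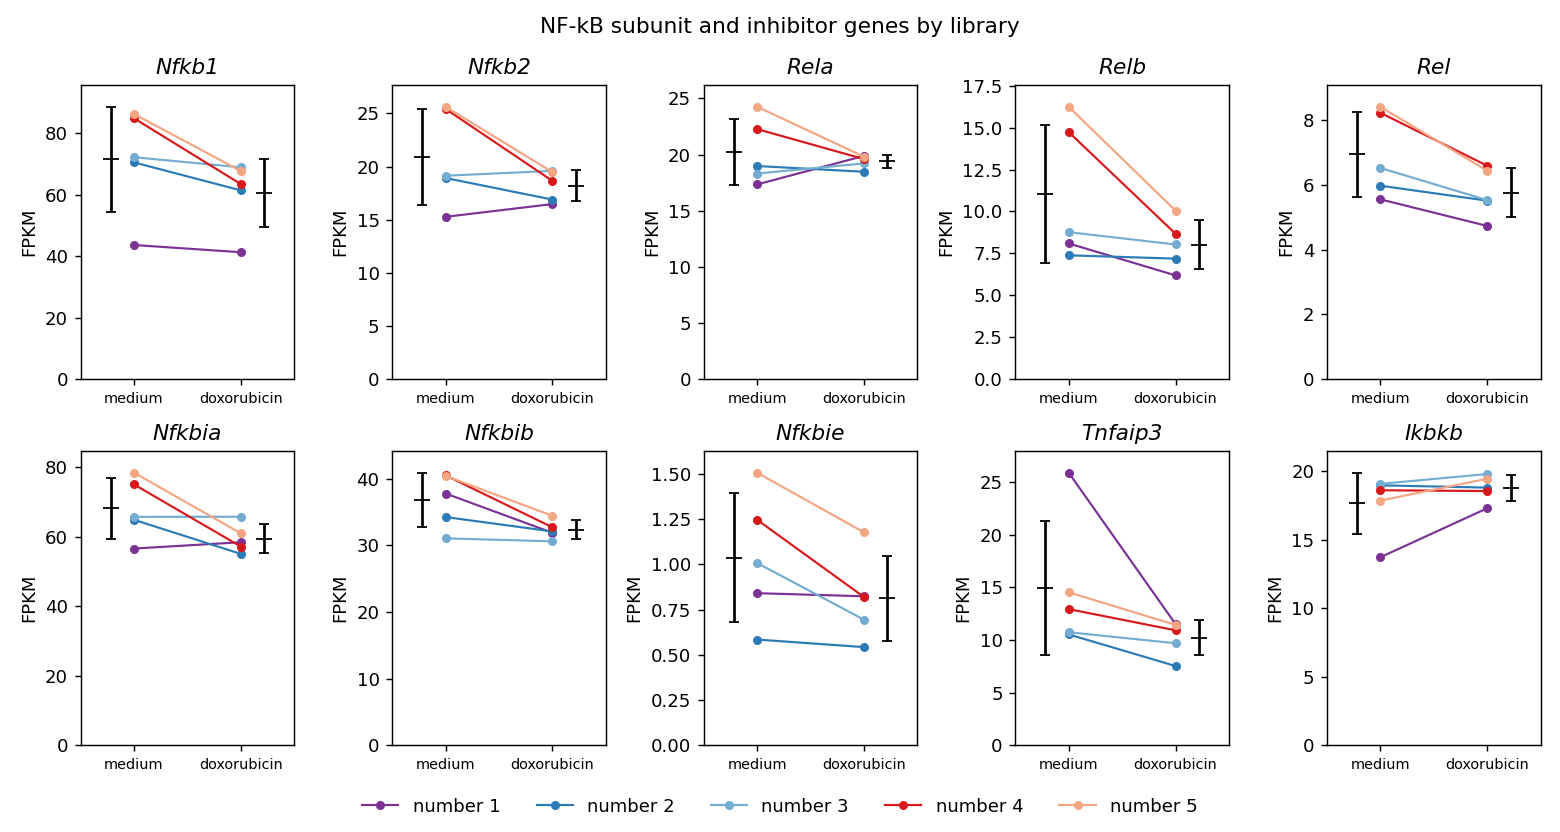
FPKM of the 10 genes in medium and with doxorubicin, 1 panel a gene with its own axis from 0; lines join libraries with the same replicate number, and bars at the sides are means with SD (n = 5). The medium libraries of numbers 4 and 5 are the highest or near the highest in most panels, Tnfaip3 is highest in medium 1 (25.9 FPKM), and the doxorubicin libraries lie closer together.

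With doxorubicin, 8 of the 9 tested genes had log2 fold changes below 0, as did 56.8% of all tested genes, and Ikbkb had one above 0. At a limma adjusted p of 0.05, 0 of 9 passed, where 0.912% of all 9869 tested genes did (at an unadjusted p of 0.05, 0 of the 9 and 1757 of all genes did). The median log2 fold change of the 9 was -0.19, against -0.03 for all genes tested. None of the 10 had doxorubicin libraries all on 1 side of the medium libraries, as 6.70% of all tested genes did. The treatment was visible in the same libraries through p53 target genes: Cdkn1a, the p21 gene, rose from 51.0 ± 4.87 to 147 ± 37.3 FPKM (log2 fold change 1.48, limma adjusted p = 0.00466), and 5 of 7 such genes passed.

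The same replicate numbers occur in both groups, and same-numbered libraries deviated together, so the comparison was also made within numbers. With the replicate number as a block, 5 of the 9 genes were lower, where 13.7% of all tested genes were, and 0 were higher, where 7.81% were. The 5 were Nfkb1, Relb, Rel, Nfkbib and Tnfaip3. These were also the 5 of the 9 that lay lower in 5 of 5 numbers, a pattern seen in 23.1% of all tested genes. These calls depended on which numbers were included. With the block, 2 of 9 were lower without number 2 (8.33% of all genes), 1 without number 3 (8.82%), 0 without number 4 (3.78%) and 0 without number 5 (3.79%). In the last pair of limma fits, which hold 8 libraries each, 4 and 5 of the 9 had an unadjusted p under 0.05, as did 29.6% and 29.3% of all genes. Without number 1, whose 2 libraries stood apart from the other 8, 7 of 9 were lower (18.4% of all genes), Nfkb2 and Nfkbia in addition. When libraries were weighted by quality, in a fit without the block, 8 of 9 were lower, against 23.3% of all genes. That fit leans on numbers 4 and 5, whose medium libraries had weights of 4.56 and 2.80 against 0.0948 to 0.673 for medium 1 to 3.

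**Figure D2:**
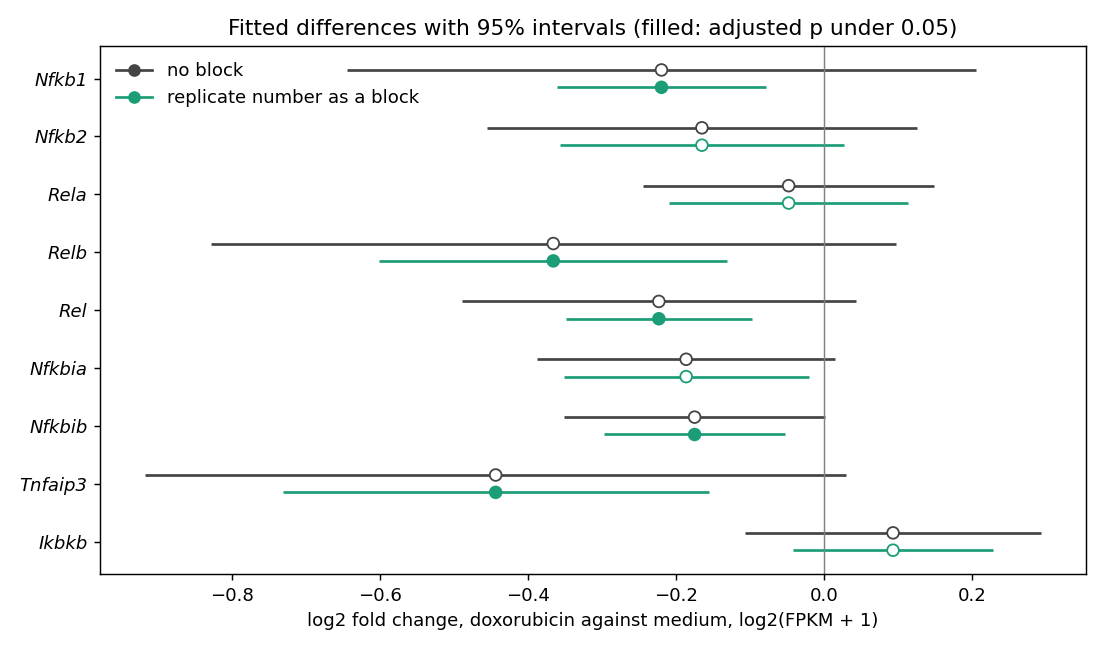
Fitted log2 fold change of the 9 tested genes, doxorubicin against medium, with 95% intervals from limma; grey is the fit without a block and green the fit blocked on replicate number, and filled points have an adjusted p under 0.05. No grey point is filled, and 5 green ones are, those of Nfkb1, Relb, Rel, Nfkbib and Tnfaip3.

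Nfkb1 encodes a precursor that is processed to a DNA-binding subunit with no activation domain of its own. It was at 43.6, 70.4, 72.1, 84.8 and 86.2 FPKM in medium 1 to 5. Treated libraries 1 to 5 gave 41.3, 61.4, 68.8, 63.4 and 67.6 FPKM. Both libraries of number 1 were low, and the 4 other medium libraries all lay above the highest doxorubicin library. The log2 fold change was -0.22 (95% interval -0.64 to 0.21, adjusted p = 0.590). With the block the interval was -0.36 to -0.08 (adjusted p = 0.0381, range over 24 alternative settings 0.00627 to 0.820). The unblocked value was -0.09 without doxorubicin 1, -0.14 without medium 5 and -0.38 without medium 1.

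Nfkb2 encodes the precursor of the non-canonical pathway, which pairs with RelB. It was at 15.3, 18.9, 19.1, 25.4 and 25.6 FPKM in medium 1 to 5. In doxorubicin 1 to 5 the values were 16.5, 16.9, 19.6, 18.7 and 19.5 FPKM, so the groups overlapped and only medium 4 and 5 stood above all doxorubicin libraries. On the log2 scale the fold change was -0.17 (95% interval -0.46 to 0.12, adjusted p = 0.549), and 3 of 5 numbers were lower. It was -0.09 without medium 4 or without medium 5, -0.27 without medium 1 and -0.10 with the block and without number 4. In the annotation of build GRCm38 Nfkb2 overlaps Psd on the opposite strand, which was listed at 0.820 and 0.878 FPKM in the 2 groups.

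Relb, the partner of the Nfkb2 product, showed the largest contrast among subunits. It was at 8.10, 7.39, 8.77, 14.7 and 16.2 FPKM in medium 1 to 5. After doxorubicin, libraries 1 to 5 held 6.19, 7.19, 8.03, 8.67 and 10.1 FPKM. Medium 4 and 5 were far above the rest, and the other 3 medium libraries fell within the doxorubicin range. Its fitted log2 fold change was -0.37 (95% interval -0.83 to 0.10, adjusted p = 0.388; 0.0385 with the block, range 0.00930 to 0.680), and without medium 5 it was -0.22.

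Rel encodes c-Rel, a subunit of blood cells. It was at 5.55, 5.97, 6.52, 8.22 and 8.40 FPKM in medium 1 to 5. Treated libraries 1 to 5 gave 4.73, 5.51, 5.52, 6.59 and 6.43 FPKM. It was lower in each number, by -0.10 in number 2 up to -0.34 in number 5, and 3 doxorubicin libraries lay below every medium library. The log2 fold change was -0.22 (95% interval -0.49 to 0.04, adjusted p = 0.361; 0.0250 with the block, range 0.00702 to 0.629).

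Rela was the steadiest subunit. It was at 17.3, 19.0, 18.3, 22.3 and 24.3 FPKM in medium 1 to 5. In doxorubicin 1 to 5 the values were 19.9, 18.5, 19.2, 19.6 and 19.8 FPKM, all inside the medium range. On the log2 scale the fold change was -0.05 (95% interval -0.24 to 0.15, adjusted p = 0.830; 0.654 with the block). When 1 library was left out it lay between -0.098 and 0.017, and without number 1 it was -0.11. With library quality weights it was -0.18 (limma adjusted p = 0.0318), the 1 setting of the 24 alternatives in which Rela passed.

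Nfkbia, the gene of the main inhibitor and a fast NF-kB target, was at 56.6, 64.8, 65.7, 75.0 and 78.4 FPKM in medium 1 to 5. After doxorubicin, libraries 1 to 5 held 58.4, 55.0, 65.7, 57.1 and 60.9 FPKM. The groups overlapped, and numbers 1 and 3 differed by 0.04 and 0.00061 on the log2 scale while numbers 2, 4 and 5 differed by -0.23, -0.39 and -0.36. Its fitted log2 fold change was -0.19 (95% interval -0.39 to 0.01, adjusted p = 0.314). With the block its adjusted p was 0.0960, and it passed in 2 of the 24 alternative settings.

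Nfkbib, the gene of IkBβ, was at 37.8, 34.2, 31.0, 40.5 and 40.4 FPKM in medium 1 to 5. Treated libraries 1 to 5 gave 31.9, 32.1, 30.6, 32.7 and 34.4 FPKM, and 3 medium libraries lay above all of these. The log2 fold change was -0.18 (95% interval -0.35 to 0.0017, adjusted p = 0.286; 0.0495 with the block, range 0.00892 to 0.532). In build GRCm38 the gene overlaps Sirt2 on the opposite strand, whose values were 20.1 ± 5.51 in medium and 17.0 ± 2.59 FPKM with doxorubicin. Ccer2, also on the opposite strand of Nfkbib, was listed at 0 in all libraries. Whether counting used strand is not given in the sources used here, so reads of the overlap cannot be told apart. In the same build Nfkb1 overlaps Gm43430 on its own strand. AC114539.1 and Gm15346 overlap Nfkb2 and Ikbkb on the opposite strand. No values were listed for Gm43430, AC114539.1 and Gm15346.

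Nfkbie was at 0.841, 0.584, 1.01, 1.25 and 1.51 FPKM in medium 1 to 5. In doxorubicin 1 to 5 the values were 0.824, 0.543, 0.694, 0.819 and 1.18 FPKM, lower in 5 of 5 numbers with overlapping groups. It lay below the filter and was tested only where no filter was set, with a log2 fold change of -0.16 (limma adjusted p = 0.648).

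Tnfaip3 encodes A20, which trims and adds ubiquitin chains on upstream signalling proteins and so ends the signal. It was at 25.9, 10.5, 10.7, 12.9 and 14.5 FPKM in medium 1 to 5. After doxorubicin, libraries 1 to 5 held 11.5, 7.53, 9.69, 10.9 and 11.4 FPKM. Medium 1 alone was far above the other libraries, and within numbers the differences were -1.10, -0.43, -0.13, -0.23 and -0.32. On the log2 scale the fold change was -0.44 (95% interval -0.92 to 0.03, adjusted p = 0.308; 0.0396 with the block, range 0.00830 to 0.539). Without medium 1 the value was -0.24, and without both libraries of number 1 it was -0.28 (adjusted p = 0.214; 0.00830 with the block).

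Ikbkb, which encodes the catalytic kinase of the canonical pathway, was at 13.7, 19.0, 19.1, 18.6 and 17.8 FPKM in medium 1 to 5. Treated libraries 1 to 5 gave 17.3, 18.8, 19.8, 18.5 and 19.4 FPKM. Medium 1 was the low library, and the other 4 medium libraries fell within the doxorubicin range. Its fitted log2 fold change was 0.09 (95% interval -0.11 to 0.29, adjusted p = 0.635; 0.275 with the block), while it was 0.01 without medium 1 and 0.04 without both libraries of number 1.

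**Figure D3:**
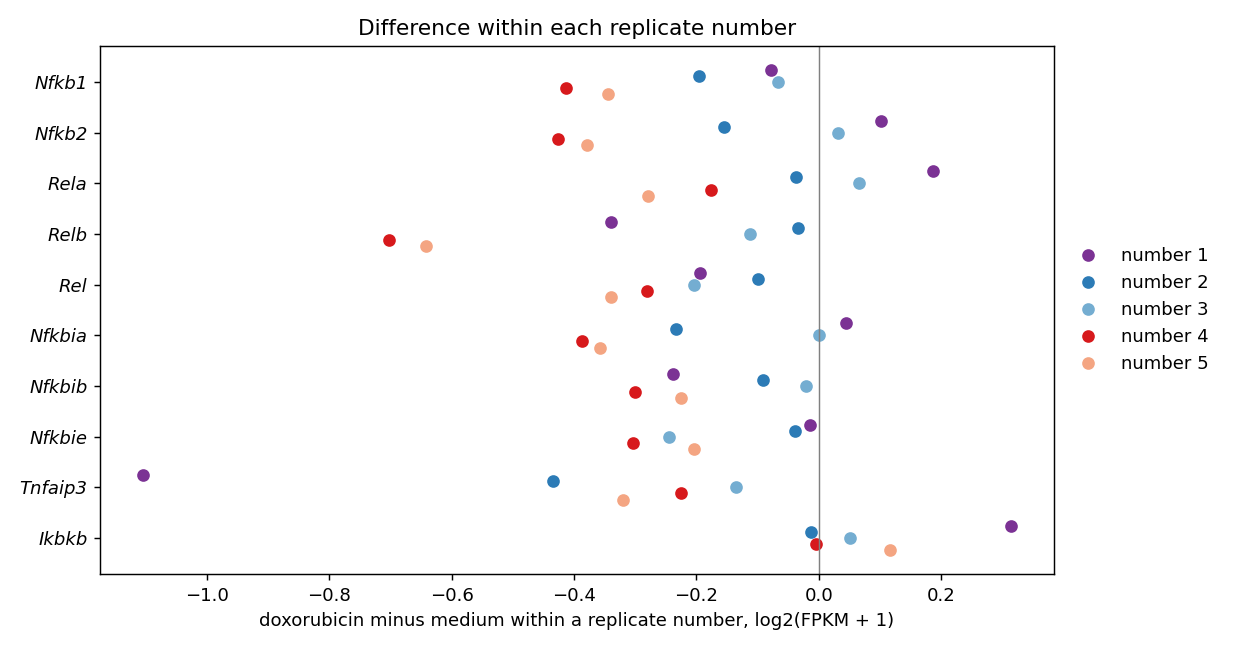
Difference between the doxorubicin and the medium library of each replicate number, in log2(FPKM + 1), for the 10 genes; 1 point a number. Numbers 4 and 5 hold the 2 lowest differences for the 5 subunits and Nfkbia, and number 1 is the extreme point for Tnfaip3 (-1.10) and Ikbkb (0.31).

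The differences were uneven across replicate numbers. By their profiles over all genes the libraries fall into number 1, numbers 2 and 3, and numbers 4 and 5, sets that the labels do not name and that were read from the same values. The median difference of the 9 genes was -0.07 in numbers 2 and 3 and -0.31 in numbers 4 and 5, while all tested genes had medians of -0.04 and -0.03. For 7 of the 9 (all but Tnfaip3 and Ikbkb) the value was below 0 in numbers 4 and 5 and lower there than in numbers 2 and 3, as for 40.4% of all tested genes. Relb had the largest gap, -0.07 in numbers 2 and 3 and -0.67 in numbers 4 and 5. A limma interaction test of the gap passed for 0 of 9 genes, where 1.56% of all tested genes passed, and 6 of 9 had an unadjusted p under 0.05, against 18.5% of all tested genes. Relb had an adjusted p of 0.0643 and Nfkb2 of 0.102 (unadjusted 0.00123 and 0.00417). The interaction was added after the sets were seen in these same values, with 2 libraries a group in each set. Its p-values are therefore descriptions and cannot decide if the gap would recur.

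For most of the 9 genes, the medium libraries of numbers 4 and 5 had higher levels than those of numbers 2 and 3. The same medium values enter the differences above, so these levels and those differences are not independent. Relb averaged 8.08 FPKM in medium 2 and 3 and 15.5 in medium 4 and 5, against 7.61 and 9.36 in the doxorubicin libraries of the same numbers. Nfkb2 averaged 19.0 and 25.5 FPKM in medium and 18.3 and 19.1 with doxorubicin. Nfkbia averaged 65.3 and 76.7 FPKM in medium and 60.4 and 59.0 with doxorubicin. The median difference of medium 4 and 5 from medium 2 and 3 was 0.30 on the log2 scale over the 9 genes and 0.03 over all tested genes, with Ikbkb the exception at -0.06. Between the doxorubicin libraries of the same 2 sets the step was 0.01 for Nfkb1, 0.06 for Nfkb2, 0.06 for Rela and -0.03 for Nfkbia, against 0.26, 0.40, 0.30 and 0.23 in medium. Relb kept a step of 0.27 with doxorubicin (0.86 in medium), and for Tnfaip3 the steps were 0.35 and 0.34.

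In each of the 9 genes the SD of the log2 values was larger among medium than among doxorubicin libraries, as it was for 73.0% of all tested genes. For Rela the SD was 0.19 in medium and 0.04 with doxorubicin, and for Nfkb2 it was 0.30 and 0.11.

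Genes around the 10 were taken from 5 lists of the pathway, with 104 tested genes that are not among the 10. Without a block, 1 of these was higher, the chemokine gene Cxcl10, and 0 were lower. Cxcl10 averaged 0.768 FPKM in medium and 1.25 FPKM over the 10 libraries. It thus met the filter of 1 FPKM only through the doxorubicin libraries. With the block 12 were higher and 19 lower. The shares over all genes, 7.81% higher and 13.7% lower, are the background for these blocked counts and for those of each list with all 10 libraries. The lists were chosen with earlier results of these data known. The median log2 fold change of the 104 was -0.05, near that of all tested genes (-0.03). Below, means are given with SD (n = 5) for medium and then doxorubicin, signed values in parentheses are log2 fold changes, and adjusted p-values are from limma without the block unless stated. Among the genes named below, groups did not overlap for Bcl10, Rnf31, Nkap, Pidd1, Cxcl10, Ccl5 and Il1rn. Over all tested genes 6.70% had such groups, and most of the named genes were picked because they passed.

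Of 29 tested genes for kinases and signal adaptors, 3 were higher and 7 lower with the block, and 0 without it (median -0.12). Bcl10, an adaptor that leads from cell surface receptors to the kinase complex, was at 34.6 ± 4.65 FPKM in medium and 27.3 ± 2.30 in treated cells (-0.33, adjusted p = 0.132), and its groups did not overlap. Irak3, a brake on signalling from Toll-like and interleukin 1 receptors, was at 59.9 ± 13.7 and 46.5 ± 6.29 FPKM (-0.34). Its relative Irak2 (-0.28, and -0.18 without number 1) and the IkB kinase-related gene Ikbke (-0.21) were also lower with the block. Tnfrsf1b, a receptor for tumour necrosis factor (0.33), and Tnfrsf11a, the receptor for the osteoclast factor RANKL (0.21), were higher. The other members of the kinase complex, Chuk (14.6 ± 2.80 and 14.5 ± 1.75 FPKM) and Ikbkg, the gene of NEMO (6.94 ± 0.802 and 6.66 ± 0.753), did not pass in any setting. Map3k14, the kinase of the non-canonical pathway (-0.06), did not pass in the main or the blocked fit of all 10 libraries. It passed in 1 of the 24 alternative settings.

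Of 27 tested genes for ubiquitin editing, 1 was higher and 2 lower with the block (median -0.01). Rnf31, the catalytic subunit gene of the linear ubiquitin ligase, was at 5.57 ± 0.711 and 4.31 ± 0.191 FPKM (-0.30, adjusted p = 0.114), with groups that did not overlap. Birc3, a ubiquitin ligase gene that is also an NF-kB target, was at 19.5 ± 6.52 and 14.0 ± 1.81 FPKM (-0.40, and -0.26 without number 1). Tnip3, a gene whose product binds A20, was higher, at 9.33 ± 2.92 and 12.6 ± 2.75 FPKM (0.41). Its relative Tnip1 stood at 97.6 ± 13.5 and 96.6 ± 9.31 FPKM (-0.01, adjusted p = 0.970).

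Of 9 tested genes for atypical IkB proteins and modulators, 1 was higher and 4 lower with the block (median -0.14). Of these, 2 genes of nuclear IkB proteins went opposite ways. Nfkbiz, the gene of IkBζ, was at 37.7 ± 11.9 and 29.1 ± 5.02 FPKM (-0.32), and Nfkbid, the gene of IkBNS, was at 14.6 ± 5.55 and 18.4 ± 3.97 FPKM (0.37). Nkiras2, whose product binds IkB (-0.36), Nfkbil1 (-0.24) and Nkap (-0.23) were lower. Bcl3 was at 11.6 ± 1.43 and 10.6 ± 2.18 FPKM (-0.14, adjusted p = 0.598), higher with doxorubicin in number 1 and lower in the other 4 numbers. Without number 1 its value was -0.29, and it passed with the block (adjusted p = 0.0103). Without number 1 Nfkbil1 passed also with no block (adjusted p = 0.0497).

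The list for the route from DNA damage to NF-kB had 16 tested genes, of which the blocked fit called 3 higher and 0 lower (median 0.01). Pidd1, a p53 target gene whose product joins the NEMO complex, was at 3.34 ± 0.978 FPKM in medium and 6.55 ± 1.58 in treated cells (0.81, limma adjusted p = 0.0597), and its groups did not overlap. Atm, the gene of the kinase that senses double-strand breaks (0.23), and Map3k7, the gene of TAK1 (0.20), were the other 2. Without number 1 Pidd1 was at 0.57 and passed with no block (adjusted p = 0.0227), and Atm no longer passed with the block (adjusted p = 0.0542). Without number 4 the blocked fit called 0 genes of this list, 1 of the kinases and adaptors, 1 for ubiquitin editing and 0 atypical IkB genes. The counts were the same without number 5. Those fits called 6.45% (without number 4) and 6.36% (without number 5) of all genes in either direction.

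Of 44 tested NF-kB target genes, 6 are among the 10 genes and 38 are not. Of the 38, 6 were higher and 8 lower with the block, with a median of -0.06. Cxcl10, which met the filter only through the doxorubicin libraries, rose from 0.768 ± 0.0960 to 1.73 ± 0.352 FPKM (0.62, adjusted p = 0.0154). Il1rn, which encodes the interleukin 1 receptor antagonist, was at 7.07 ± 2.82 and 13.1 ± 1.95 FPKM (0.90, adjusted p = 0.132), and Ccl5 was at 1.19 ± 0.467 and 2.83 ± 1.68 FPKM (0.75). Without number 1 both passed with no block, Il1rn at 0.65 (adjusted p = 0.0223) and Ccl5 at 0.61 (adjusted p = 0.0313). On the lower side stood the early response gene Ier3 (40.1 ± 23.0 and 26.3 ± 11.1 FPKM, -0.53), the prostaglandin synthase gene Ptgs2 (3.66 ± 2.09 and 2.01 ± 0.938 FPKM, -0.55) and the chemokine gene Ccl3 (-0.28). Ier3 lay lower by -0.37 to -0.81 in each of the 5 numbers. These 3 were named by the p of the blocked fit and not by size. The lowest values of the list were those of Cxcl2 (-0.91, limma adjusted p with the block 0.0514) and Lcn2 (-0.90, 0.0293). Both were higher with doxorubicin in number 1 and lower in the other 4 numbers. Tnf stood at 28.0 ± 7.59 in medium and 28.7 ± 2.71 FPKM in treated cells (0.09, adjusted p = 0.863), and without number 1 the difference was -0.08. Under the block and without number 1, 9 of the 38 were higher and 11 lower, where 10.2% and 18.4% of all genes were. Without number 4 the blocked counts over the 38 were 3 higher and 1 lower, and the same without number 5. Over all genes, 2.68% were higher and 3.78% lower without number 4, and 2.57% and 3.79% without number 5.

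**Figure D4:**
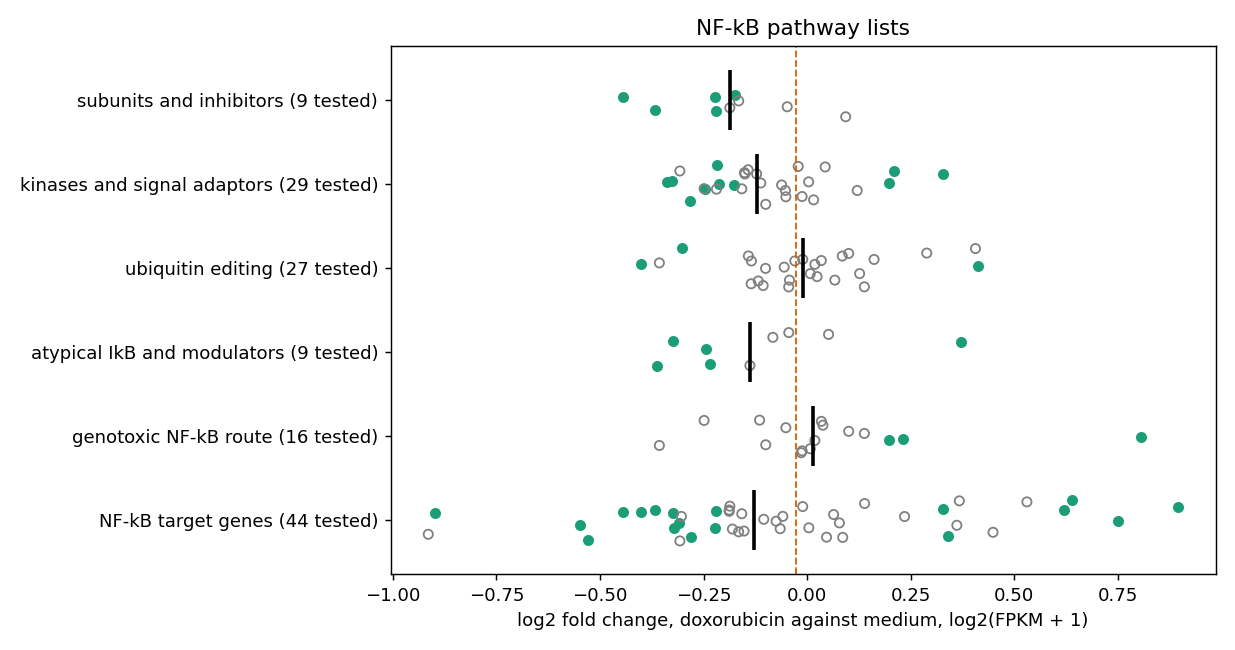
Log2 fold change of each tested gene, doxorubicin against medium, by list; green points have an adjusted p under 0.05 with the replicate number as a block, open points do not, the black bar is the list median and the dashed line the median of all tested genes (-0.03). The subunits and inhibitors have a median of -0.19 and the target genes, 6 of which are the same genes, one of -0.13, with points on both sides.

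For each gene the 3 genes most like it were sought over the 8 libraries of numbers 2 to 5, after the group means were removed. Relb was most like Cebpd, an inflammatory transcription factor gene (Pearson r = 0.999), Ccdc191 and Cyb5r1. Nfkb2 was most like Wasf2 (0.998) and Zc3h12a, the gene of the RNA-cleaving protein Regnase-1 (0.995). Nfkbia was most like App (0.991), Rel most like Cttnbp2nl (0.998) and Tnfaip3 most like Hltf (0.996). The 8 libraries fall into 2 sets, so these values are descriptions of few independent points. Many genes were alike: 905 genes were over 0.9 for Relb and 1201 for Rel, while 115 were for Nfkbia and 38 for Ikbkb.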

How the data were processed

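The deposited table holds FPKM made by the authors, 22186 gene symbols by 10 libraries. The build listed is GRCm39, per the submitters' processing notes; aligner, counter and use of strand are not given in the sources used here, and depth and counting error are unknown. Replicate numbers come from the titles. The comparison was fitted with limma 3.58.1 in R 4.3.3 on log2(FPKM + 1) with a mean-variance trend, all 10 libraries and no block, over the 9869 genes that averaged 1 FPKM or more. Benjamini-Hochberg adjusted p-values under 0.05, 2-sided, over all these genes counted as passing, and fold changes on this scale understate the change of low genes. Same-numbered libraries correlated in their deviations from the group means (r = 0.79, 0.70, 0.67, 0.52 and 0.55 for numbers 1 to 5, while numbers 2 and 3 crossed gave 0.69 and 0.59 and numbers 4 and 5 crossed gave 0.51 and 0.51), so by a threshold of 0.1 the numbers were taken to pair the samples, although crossed libraries within a set correlated about as highly, and a fit blocked on replicate number (the replicate block) stands beside the main one. Alternatives were the block, a pseudocount of 0.1, no filter, quantile or equal-sum scaling, library quality weights, exact permutation, leaving out each library, and leaving out number 1. Chosen after seeing the data were 3 sets of numbers as blocks, leaving out each other number under the block, and the interaction of the sets. The members and lists were chosen with earlier results of these data known. Named genes were all 10 members; from each list up to 6 genes that passed, by smallest p of the blocked fit; Ikbkg, Chuk, Map3k14, Ikbke, Bcl3, Nfkbiz, Tnip1 and Tnf; Cdkn1a, Mdm2 and Ccng1; and the 3 genes most like each member. Cxcl2 and Lcn2 were named in addition, for the size of their change. Promoters came from RefSeq on GRCm38.p6 and were read with Python 3.11.15.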

Additional observations from a re-analysis of the deposited data

Results flagged for a closer look

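Each group of 5 libraries was searched for 1 library far from the other 4. Of 84 groups examined, 14 held one. In all 14 the library was one of number 1. Among the 10 subunit and inhibitor genes it was 3 of 20 groups. A chance rate of about 1 in 20 holds for independent groups. These groups share the same 10 libraries, so that rate is no yardstick here, and the share over all tested genes was not computed. Nfkb1 stood at 41.3 FPKM in doxorubicin 1, with the other doxorubicin libraries at 61.4 to 68.8. Tnfaip3 stood at 25.9 FPKM in medium 1, with the other medium libraries at 10.5 to 14.5. Ikbkb stood at 13.7 FPKM in medium 1, with the others at 17.8 to 19.1.

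Among pathway genes, medium 1 was apart for Ikbke (41.7 FPKM, others 21.7 to 24.9), Chuk (9.74, others 15.3 to 16.6), Tnf (14.8, others 28.7 to 34.1) and Ier3 (80.5, others 25.6 to 36.2). Doxorubicin 1 was apart for Ier3 (45.4 FPKM, others 17.8 to 24.8), Pidd1 (9.32, others 5.50 to 6.33), Ccl5 (5.82, others 1.83 to 2.27) and Bcl3 (14.3, others 9.08 to 10.2). Of the p53 target genes, Cdkn1a was apart in medium 1 (42.5 FPKM, others 52.1 to 54.4) and in doxorubicin 1 (212 FPKM, others 120.3 to 142.6), and Mdm2 in doxorubicin 1 (126 FPKM, others 58.0 to 70.1).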

How the results depend on the processing

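Of the 9 tested subunit and inhibitor genes, 0 passed limma's unweighted test without a block. Each fit that left out 1 library also gave 0 (0 to 0). The count was 5 with the replicate block and 7 with the block and without number 1. It was 8 with library quality weights and no block, and 5 with the 3 sets as blocks. With the block it was 2 without number 2, 1 without number 3, 0 without number 4 and 0 without number 5. For the pathway lists, including members among the target genes, the count was 1, against 35 with the replicate block, 5 without number 1, 46 with both, 52 with weights, 0 by exact permutation and 45 with the 3 sets. With the block and without numbers 2, 3, 4 and 5 it was 25, 16, 6 and 6, and leaving out 1 library gave 0 to 3. For all genes the count was 90, against 2127, 556, 2827, 3681, 0 and 3168 in the same order, then 1549, 1300, 637 and 628, and 15 to 226 without 1 library. Pseudocount, filter and scaling left it at 86 to 101. The smallest p of the exact permutation test was 0.00794, the lowest that this design allows. The smallest adjusted p found was 0.118, so no gene passed. At an unadjusted p of 0.05 in that test, 1764 of all genes (17.9%) and 0 of the 9 were below it. Log2 values of 4 genes changed sign near 0. Rela ranged from -0.098 to 0.017 when 1 library was left out and was 0.0099 with the block and without number 5. Its lowest value, -0.18, came with library quality weights. Chuk ranged from -0.13 to 0.057, and was -0.073 without number 1 in both fits, -0.0045 at equal sums, -0.058 with weights and -0.0033 with the block and without number 4. Tnip1 ranged from -0.055 to 0.063, and was 0.020 without number 1 in both fits, 0.0088 with weights and 0.0015 with the block and without number 4. Tnf ranged from -0.12 to 0.17, and was -0.084 without number 1 in both fits and -0.028 with weights. The cause of these changes was not tested. Read depth was not used here, so counting error of low genes such as Nfkbie has no limit that could be given.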
